A study of Mus musculus with 24 samples.

Results

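The 8 genes described here encode surface ligands through which other cells tell a T cell to respond or to stop: Cd274 (PD-L1), Pdcd1lg2 (PD-L2), Cd80, Cd86, Pvr (CD155), Nectin2 (CD112), Cd40 and Icosl. They were taken by symbol from the gene list of a single-cell RNA-seq matrix, 8 of 32285 genes, and every symbol matched 1 gene. The cells came from subcutaneous Panc02 tumors, a mouse pancreatic carcinoma line, grown in male C57BL/6 mice aged 6 to 7 weeks and harvested on day 38. All mice carried the tumor and received antibody, either a checkpoint inhibitor or its isotype control, and PBS took the place of the vaccine where none was given. The 8 treatments were isotype control, anti-PD-1, anti-CTLA-4, anti-PD-1 + anti-CTLA-4, and each of these with PancVAX. PancVAX is a mixture of neoantigen peptides. It was given on days 12 and 19 with AddaVax and a STING agonist, so a PancVAX effect below includes that of the adjuvants. Anti-PD-1 (100 µg) was given 2 times a week from day 12 and anti-CTLA-4 (100 µg) on days 15 and 22. Tumors were pooled within a treatment, and each treatment had 1 library of whole-tumor cells and 1 library enriched for immune cells on Percoll. It is not stated whether both came from the same mice. Below, a pool means the 2 libraries of a treatment. The Percoll libraries were also a separate sequencing batch, so preparation and batch cannot be told apart. Each agent was therefore compared over 4 pools with and 4 pools without it. Each treatment had 1 pool, so the spread behind a p-value is between pools of different treatments. The fit for an agent took the agents as additive, so that spread includes any interaction between them.

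PD-L1 and PD-L2 bind PD-1 on T cells and dampen their response. CD80 and CD86 bind CD28, which costimulates, and CTLA-4, which competes for them. CD155 and CD112 are nectin-family proteins of epithelial and myeloid surfaces that bind the activating receptor CD226 and the inhibitory receptor TIGIT. CD40 is the receptor through which helper T cells license antigen-presenting cells, and ICOSL binds ICOS on activated T cells. Interferon-gamma is known to induce PD-L1 on tumor and myeloid cells, and maturation of dendritic cells is known to raise CD80, CD86 and CD40.

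In the mm10 genome (GRCm38.p6 annotation of RefSeq) Cd274 (chr19:29362107-29388095) and Pdcd1lg2 (chr19:29410919-29472927) lie close together, as do Nectin2 (chr7:19716644-19749573) and Pvr (chr7:19903578-19921143). Cd86 (chr16:36568956-36666158) and Cd80 (chr16:38457430-38495958) share a chromosome but lie further apart. Cd40 (chr2:165055614-165071654) and Icosl (chr10:78069368-78079525) are on chromosomes of their own. Ligands on 1 chromosome did not always share a leading cell type: Cd80 was highest in neutrophils and Cd86 in dendritic cells.

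Of 144994 barcodes, 57340 passed the limits on genes, unique molecular identifiers (UMIs) and mitochondrial share. Libraries held 77132398 to 176233225 UMIs and 1793 to 7412 such cells. Clusters were named from marker lists, with the ligands kept out of the clustering genes. The macrophage class (with monocytes) had 13945 cells, neutrophils 8163, B cells 2749 and dendritic cells 1762. The PancVAX + anti-PD-1 pool had only 42 B cells. At the median, a cell had UMIs for 15 of 34 macrophage, 10 of 29 neutrophil and 12 of 22 B-cell markers in its own class, and dendritic cells had 5 of 30. The tumor class (4066 cells) and the stromal class (9333 cells) were less clear. The main stromal cluster, led by Sox9 and Prelp, also had Krt8 UMIs in 82.2% of cells and Rhox5 UMIs in 76.8%. The shares were 68.7% and 71.8% in the tumor class and 7.08% and 7.82% in macrophages. The cluster thus carried Krt8 and Rhox5 beside stromal markers. Epcam, another epithelial marker, was seen in only 1.25% of this cluster and 1.25% of the tumor class, against 13.9% of dendritic cells. A median of 5 of 23 tumor markers was detected in the stromal class and 3 in the tumor class, and 21.2% of the tumor class fell in a gate set by tumor markers in each cell. Only 33.0% of the stromal and 42.1% of the dendritic class fell in their own gates, against 95.9% or more of macrophages, neutrophils and B cells, so that values with marker gates are of a smaller set of dendritic cells. The name of the tumor class is therefore weakly supported. The stromal class is called the Sox9/Prelp class below. It also held a fibroblast cluster of 266 cells, led by Col1a1. Up to 284 cell barcodes occurred in a pair of libraries (median 110 over 120 pairs). Random draws would give 187 for this pair, PancVAX + anti-CTLA-4 and isotype control in whole tumor. The Percoll libraries of PancVAX and anti-CTLA-4 shared 168, against 97.7 from random draws. Of the cells, 7.27% carried a barcode also found among the cells of another library. Without these cells each of the 8 ligands was still highest in the same class.

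Levels are given as CPM, a gene's UMIs per 1000000 UMIs of the summed cells of a class in a pool, and were compared for 1 gene between classes, not between genes. In summed cells, fewer cells with a transcript and less transcript per cell cannot be told apart. A CPM is relative to the UMIs of a class, so a class with few UMIs per cell can lead in CPM without more of a transcript per cell. Unthinned, Cd274 was seen in 27.7% of neutrophils, 26.1% of macrophages and 24.2% of dendritic cells, at median depths of 1493, 4059 and 3708.5 UMIs. For some pairs the unthinned share went the other way from CPM. Pdcd1lg2, lower by CPM in macrophages than in neutrophils, was seen in 5.09% and 3.96% of their cells. Cd40, lower by CPM in macrophages than in B cells, was seen in 15.5% and 12.2% (median depth of B cells 2055 UMIs). Among the 6 classes the 8 ligands fell into 3 patterns by CPM. Of these classes, neutrophils were highest for Cd274 and Cd80 and antigen-presenting cells for Cd86, Cd40, Icosl and Pdcd1lg2. The keratin-positive classes were highest for Pvr and Nectin2. Of 40 pairs of classes next to each other in the order of a ligand's level, 24 differed in an exact sign-flip permutation test over 8 pools (two-sided, smallest possible P = 0.0078, adjusted over the 40 pairs).

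**Figure D1:**
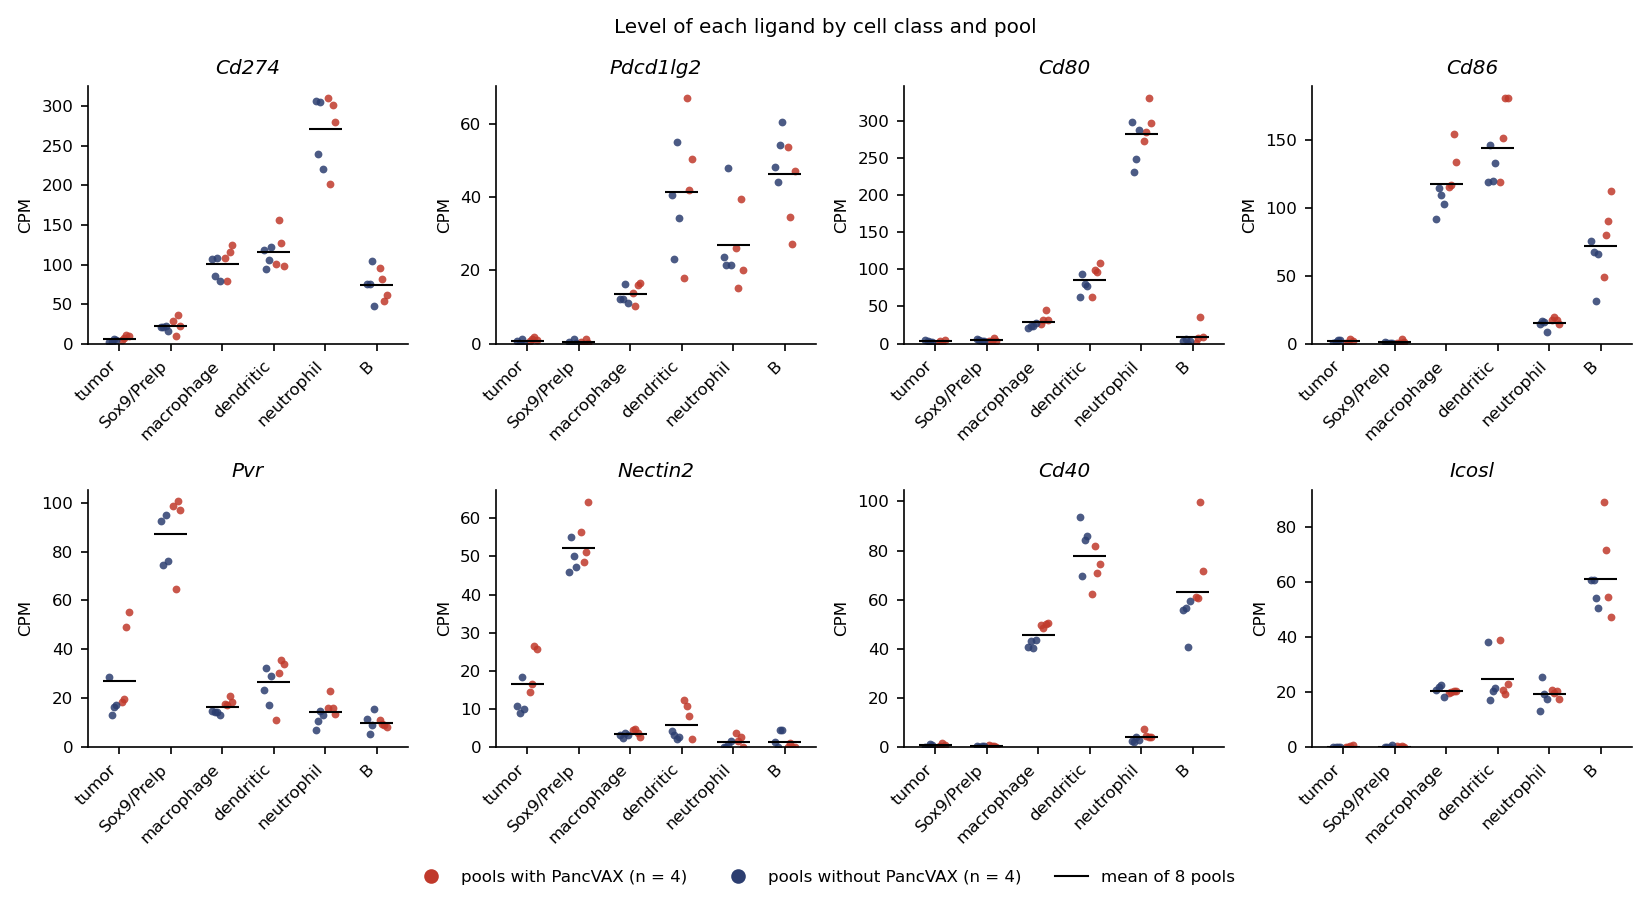
CPM of each ligand (vertical axis, linear, from 0) in 6 cell classes, each point 1 pool (red with PancVAX, blue without) and each line the mean of 8 pools. All 8 neutrophil points for Cd274 (202 to 310 CPM) and for Cd80 (231 to 330 CPM) lie above every other class, and Pvr and Nectin2 are highest in the Sox9/Prelp class.

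Cd274, the gene of PD-L1, was highest in neutrophils. Its level there was lowest at 202 CPM, in the PancVAX + anti-CTLA-4 pool, with a median of 291 and a maximum of 310 CPM. Dendritic cells had 94.3 to 157 CPM (median 112) and macrophages 78.8 to 125 CPM (median 107). The neutrophil pools did not overlap those of any other class, while dendritic cells and macrophages could not be separated (exact sign-flip permutation test, adjusted P = 0.295). With classes set by marker gates in each cell they were, at 150 and 96.1 CPM (log2 0.66, adjusted P = 0.0284 in the exact test). B cells followed with a mean of 74.5 CPM ± 19.5 (SD, n = 8 pools). The Sox9/Prelp class had 22.2 CPM ± 7.97 and the tumor class 6.00 CPM ± 3.21, a difference that held in 8 of 8 pools. With classes set by marker gates in each cell the values were 19.2 and 17.9 CPM and the call was lost (exact sign-flip permutation test, adjusted P = 0.868).

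Pdcd1lg2, the gene of PD-L2, had a broader pattern. B cells had 27.2 to 60.5 CPM (median 47.7), and dendritic cells 18.0 to 67.0 CPM (median 41.2). These 2 classes overlapped widely (exact sign-flip permutation test, adjusted P = 0.409), and dendritic cells and neutrophils (26.9 CPM ± 11.0) did not differ beyond their spread either (adjusted P = 0.108), except with marker gates, where dendritic cells were higher (log2 1.21, exact permutation, adjusted P = 0.0174). Macrophages had 13.5 CPM ± 2.54, below neutrophils in 8 of 8 pools. The tumor class held 13 UMIs in all and the Sox9/Prelp class 36, both below 1 CPM. Outside the 6 classes, T and NK cells had 53.1 CPM ± 9.03 of Pdcd1lg2, above the B-cell mean, though that pair was not tested.

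Cd80, a ligand of CD28 and CTLA-4, had its highest level in neutrophils. The 8 neutrophil pools ran from 231 to 330 CPM with a median of 287. Dendritic cells, the next class, ran from 62.4 to 109 CPM (median 87.3), so that the classes were separated by more than the spread between pools (mean log2 difference 1.73, SD 0.33, n = 8). Macrophages had 28.9 CPM ± 7.45 and were below dendritic cells in 8 of 8 pools. B cells (8.29 CPM ± 11.7, 34 UMIs), the Sox9/Prelp class (4.46 CPM ± 1.71) and the tumor class (2.99 CPM ± 1.71) were low. Between neighbours among them no difference passed the test in the main setting. In whole-tumor libraries alone B cells were called above the Sox9/Prelp class (log2 0.97, exact permutation, adjusted P = 0.0313). The mean levels there were close, at 4.58 CPM ± 3.68 in B cells and 4.01 CPM ± 1.44 in the Sox9/Prelp class. With so few B-cell UMIs the log2 value depends on the part of a UMI added to each count. Without the upper limits on genes and UMIs, cells named tumor were above those named stromal (5.62 against 2.80 CPM, exact permutation, adjusted P = 0.0125). T and NK cells, at 7.71 CPM ± 2.49, were in the same range.

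Cd86, the other CD28 and CTLA-4 ligand, was led by dendritic cells and was low in neutrophils, while dendritic cells were above macrophages for both genes. Dendritic cells had 119 to 181 CPM (median 140) and macrophages 91.7 to 154 CPM (median 115). The ranges overlapped, but dendritic cells were higher within 8 of 8 pools (exact sign-flip permutation test, adjusted P = 0.0156). B cells had 71.7 CPM ± 24.8. Neutrophils, with the highest Cd80, had only 15.5 CPM ± 3.41 of Cd86, no more than the 15.8 CPM ± 3.38 of T and NK cells.

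Cd40 was a gene of antigen-presenting cells. It measured 62.4 to 93.7 CPM in dendritic cells (median 78.3) and 40.8 to 99.9 CPM in B cells (median 60.2), neighbours for which no difference passed the test (exact sign-flip permutation test, adjusted P = 0.162). With marker gates dendritic cells were higher, at 114 against 65.4 CPM (log2 0.79, adjusted P = 0.0284 in the exact test). Macrophages varied little between pools, from 40.5 to 50.4 CPM, and were below B cells in 8 of 8 pools. This difference was lost when the upper limits on genes and UMIs were lifted (mean log2 difference -0.01). It also lost its call in 1 of the other alternatives, with the same direction. Neutrophils had 3.94 CPM ± 1.61 from 57 UMIs. The tumor class (11 UMIs) and the Sox9/Prelp class (23 UMIs) were near the detection limit.

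Icosl, the ligand of ICOS, was highest in B cells. They had 47.2 to 89.2 CPM (median 57.6), above dendritic cells (24.9 CPM ± 8.61) in 8 of 8 pools and without overlap. Dendritic cells, macrophages (20.5 CPM ± 1.31) and neutrophils (19.2 CPM ± 3.57) could not be put in order, with adjusted P = 0.276 and 0.409 in the exact permutation tests of neighbours. The tumor and Sox9/Prelp classes held 2 and 12 Icosl UMIs.

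Pvr and Nectin2, both nectin-family ligands of CD226 and TIGIT, were the 2 ligands led by keratin-positive cells. Pvr in the Sox9/Prelp class ran from 64.6 CPM in the PancVAX + anti-CTLA-4 pool to 101 CPM, with a median of 93.8. The tumor class had 13.0 to 55.1 CPM (median 19.1) and dendritic cells 11.1 to 35.8 CPM (median 29.6), and these 2 overlapped (exact sign-flip permutation test, adjusted P = 0.734). In 2 alternatives, marker gates and no upper limits, cells named tumor were above dendritic cells and the difference was called (log2 up to 1.498). Nectin2 was also highest in the Sox9/Prelp class, with 45.8 to 64.4 CPM (median 50.6), followed by 9.06 to 26.6 CPM in the tumor class (median 15.6). The other 4 of the 6 classes had 5.72 CPM of Nectin2 or less, but without the upper limits on genes and UMIs B cells had 15.1, dendritic cells 12.2 and macrophages 8.66 CPM. The B-cell class held 7 Nectin2 UMIs in 2749 cells with the limits and 150 in 2938 cells without them. A B cluster of 41 cells without the limits also had 28 markers of another class raised. The part of the added cells in these levels was not tested. Outside the 6 classes, endothelial cells had 107 CPM ± 41.9 (208 UMIs), keratinocyte-like cells 60.9 CPM (45 UMIs, 2 pools) and an unnamed cluster of 1404 cells 39.2 CPM ± 11.8. The unnamed cluster was itself keratin-positive, with Krt8 UMIs in 72.8% and Sox9 UMIs in 78.9% of its cells. It also had C1qa UMIs in 43.7% and Cd3e UMIs in 27.1% of cells.

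The names of the keratin-positive classes went to other cells when the upper limits on genes and UMIs were lifted (120407 cells, clustered again). Of the 26071 cells then named tumor, 22291 lay above the limits, 3360 had been in the Sox9/Prelp class and only 404 in the tumor class. They formed 3 clusters with Car9, Cxcl15 and Krt76 as first leading genes. Of the 4066 cells of the tumor class, 2923 were left unnamed, most of them in a cluster led by Gm26917 and Cdc20. Values under the name tumor with and without the limits are therefore of different cells. Without the limits the cells named tumor had 88.7 CPM ± 10.5 of Pvr and those named stromal 68.0 CPM ± 8.27 (exact sign-flip permutation test, adjusted P = 0.0125). Nectin2 measured 52.7 CPM ± 8.32 and 47.9 CPM ± 5.51 in the same cells (adjusted P = 0.111), and Cd274 6.84 CPM ± 1.72 and 9.91 CPM ± 2.42. With the limits kept and classes set by marker gates in each cell, no difference between the 2 names passed the test, at 82.5 CPM (stromal) and 71.3 CPM (tumor) of Pvr (adjusted P = 0.171) and 48.9 and 43.0 CPM of Nectin2 (adjusted P = 0.283). Without the limits 21133 cells (17.6%) stayed unnamed. In all 3 settings Pvr and Nectin2 were highest under the name tumor or stromal among the 6 classes, and the order of these names was not stable.

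**Figure D2:**
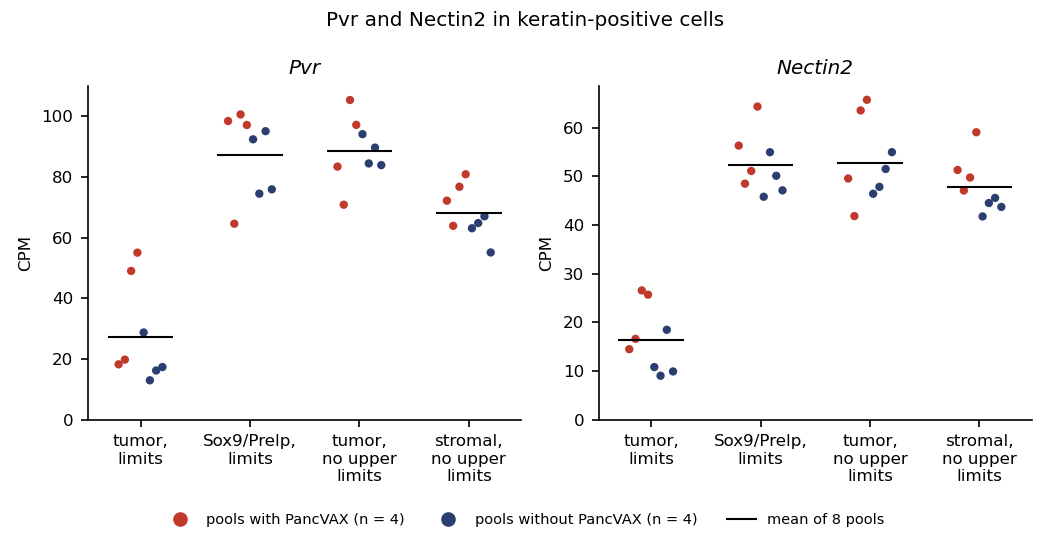
CPM of Pvr and Nectin2 (vertical axes, from 0) in the cells named tumor and stromal with and without the upper limits on genes and UMIs. Each point is 1 pool (red with PancVAX, blue without) and each line the mean of 8 pools. The mean under the name tumor is 27.2 CPM with the limits and 88.7 CPM without them for Pvr, and 16.5 and 52.7 CPM for Nectin2, but only 404 cells carry that name in both settings.

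Within classes the ligands were spread unevenly over clusters. These values describe clusters of the same cells and were not tested. Among dendritic cells, the mature-like ones (337 cells, named from genes such as Fscn1 and Ccl22) had 284 CPM ± 38.0 of Cd274, 249 CPM ± 26.7 of Cd40, 226 CPM ± 58.8 of Cd80 and 121 CPM ± 59.6 of Pdcd1lg2. Type 1-like dendritic cells (445 cells), which cross-present antigen, had 29.8 CPM of Cd274, 23.6 CPM of Cd40 and 22.0 CPM of Cd80. Cd86 differed less, with 165 CPM in mature-like, 115 CPM in type 1-like and 103 CPM in type 2-like cells. Plasmacytoid-like cells (123 cells) had 0 Cd80 UMIs and 1 Cd86 UMI. For Cd274 and Cd80, mature-like dendritic cells thus had means nearer those of neutrophils (271 and 282 CPM) than those of type 1-like dendritic cells.

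Macrophages fell into 3 clusters. The largest (7893 cells, Gdf15 and Apoe) had 119 CPM of Cd274 and 127 CPM of Cd86. The Ccl8 and Ccl24 cluster (4441 cells) had less of both, 22.9 and 64.0 CPM. The Arg1 and F13a1 cluster (1611 cells) had 83.1 CPM of Cd274, 126 CPM of Cd86, and the most Cd80 (58.3 CPM) and Pvr (37.0 CPM) of the 3. Pdcd1lg2 was nearly the same in all 3, at 13.5, 14.0 and 13.6 CPM. Neutrophils had 2 clusters: the Siglecf cluster (5411 cells) had 317 CPM ± 26.2 of Cd80 and 256 CPM (SD 37.2) of Cd274, and the Retnlg cluster (2752 cells) had 202 CPM ± 31.3 and 304 CPM ± 62.0. High Cd80 and Cd274 were thus present in both neutrophil clusters. The fibroblast cluster had 30.8 CPM ± 17.3 of Pvr from 44 UMIs and 25.4 CPM ± 7.63 of Nectin2 from 32 UMIs, lower than the 88.6 and 52.9 CPM of the Sox9 and Prelp cluster beside it.

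**Figure D3:**
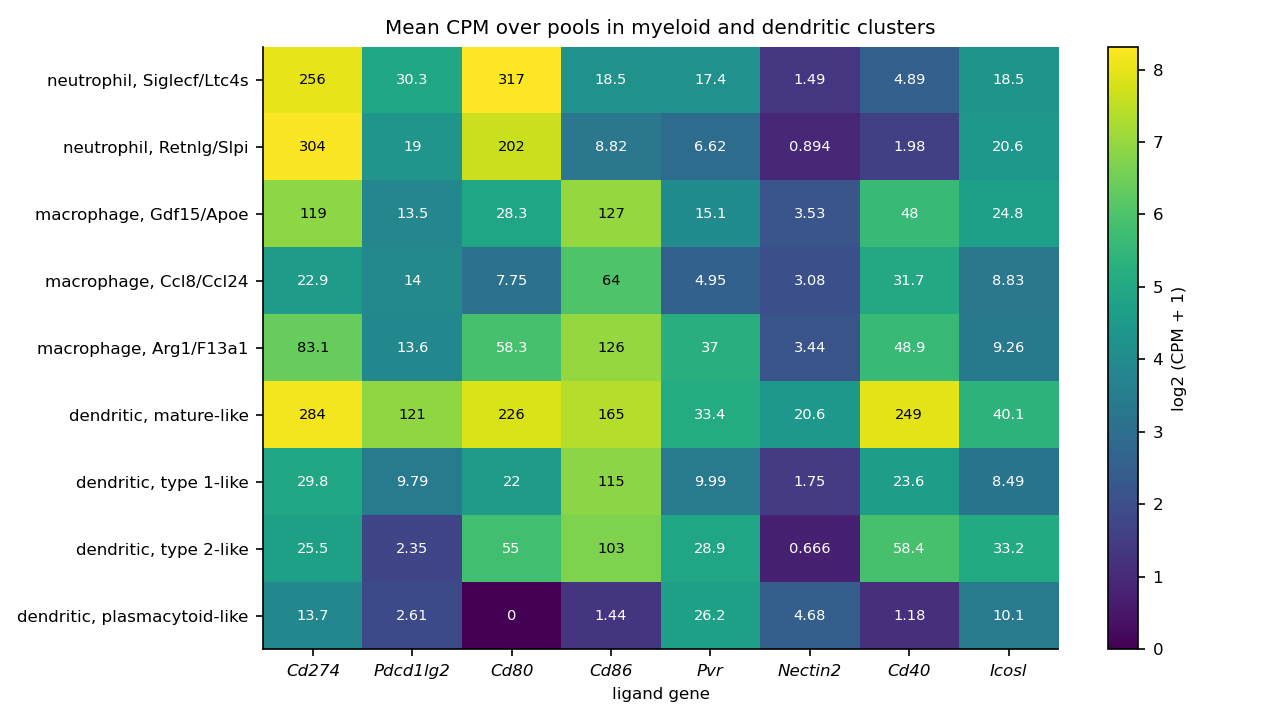
Mean CPM over pools (printed in each cell) of the 8 ligands in 9 myeloid and dendritic clusters, shaded by log2 (CPM + 1). Mature-like dendritic cells and both neutrophil clusters share high Cd274 and Cd80, but Cd40 reaches 249 CPM in the former and at most 4.89 CPM in the neutrophil clusters.

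Shares of cells with a UMI were compared after each cell was thinned to 1000 UMIs, since median depth ran from 1493 UMIs in neutrophils to 6283 in the Sox9/Prelp class. A thinned share, like CPM, is relative to the UMIs of a cell. Cd80 was then seen in 23.9% of neutrophils (95% exact binomial interval 23.0 to 24.8, counting error only), 34.2% before thinning. The share in T and NK cells, the class set beside it, was 0.910% (2.83% unthinned, median 3554 UMIs). That class was not uniform, with 0.412 CPM of Cd80 in a Klrb1c and Ncr1 cluster and 23.3 CPM in a Mki67 and Top2a cluster, and no measure of free RNA was made. Cd274 was seen in 20.5% of neutrophils (27.7% unthinned) and 7.73% of macrophages (26.1% unthinned). Cd86 was seen in 11.6% of dendritic cells (34.6% unthinned) and in 1.25% of neutrophils (2.28% unthinned), against 1.61% of T and NK cells (5.78% unthinned), so the neutrophil share was no higher than the T and NK share. For Pvr, macrophages (1.41%, 6.43% unthinned) and neutrophils (1.53%, 2.50% unthinned) were at the T and NK share of 1.43% (4.73% unthinned), while the Sox9/Prelp class had 8.35% (36.4% unthinned). Within macrophages the Pvr level was uneven, as given above, with 37.0 CPM in the Arg1 and F13a1 cluster.

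Each ligand had genes that followed it over the 48 class and pool values (Pearson r of log2 CPM over 7954 genes). The points share libraries and cell classes, so r is a description without a test. Cd274 was closest to Iqgap1 (r = 0.97), H2-D1 (0.96) and Cmtm6 (0.96), the last a known partner that stabilizes PD-L1 on the surface. Cd80 was closest to Cers6 (0.96), Cd86 to Cd48 (0.97), Cd40 to Cd83 (0.98), an activation marker of antigen-presenting cells, and Icosl to Ikzf1 (0.99), a lymphoid transcription factor. Pdcd1lg2 was closest to Cytip (0.96), Pvr to Elovl5 (0.91) and Nectin2 to Palld (0.92). Among the ligands themselves the closest were Cd86 and Cd40 (r = 0.97), with Pvr and Nectin2 at 0.82 and Cd80 and Cd86 at 0.52.

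All 9 receptors of the ligands had their highest level in T and NK cells, which had 314 CPM of Pdcd1, 261 CPM of Tigit, 218 CPM of Cd28, 214 CPM of Ctla4 and 209 CPM of Icos, while each of the 6 classes had 8.81 CPM or less of Pdcd1. The gap was smaller for Pvrig, a receptor of Nectin2, at 18.6 CPM in T and NK cells and 7.80 CPM in macrophages (490 UMIs).

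No ligand passed the test for any of the 3 agents. Of 34 member-by-class tests for each agent (edgeR quasi-likelihood on summed counts, Benjamini-Hochberg over all genes of the class), 0 were called for PancVAX, 0 for anti-PD-1 and 0 for anti-CTLA-4. DESeq2 also called 0 of them. At an unadjusted p below 0.05 the counts were 8, 4 and 1, where 4 of the 8 were in macrophages, 3 in the tumor class and 1 in dendritic cells. For PancVAX, 13.4% of all genes in macrophages, 13.2% in the tumor class and 7.25% in dendritic cells had such a p. Of the 4 for anti-PD-1, 2 were in macrophages, 1 in neutrophils and 1 in the tumor class, where 6.64%, 7.95% and 5.15% of all genes had such a p. The 1 for anti-CTLA-4 was in dendritic cells, beside 4.54% of all genes. After adjustment, PancVAX called 0.0752% of all genes tested in the tumor class, 0% in the Sox9/Prelp class, 0.0352% in macrophages, 0.132% in dendritic cells, 0.202% in neutrophils and 0% in B cells. For anti-PD-1 it was 0.0107% in the tumor class, 0.0265% in dendritic cells, 0.155% in neutrophils and 0% in the other 3 classes. For anti-CTLA-4 it was 0.0322% in the tumor class, 0.0249% in the Sox9/Prelp class and 0% in the other 4. Tests reached 8 ligands in macrophages and in dendritic cells, 6 in neutrophils, 5 in B cells, 4 in the Sox9/Prelp class and 3 in the tumor class, since the rest had too few counts. For 30 of 34 PancVAX effects the 95% interval lay within a log2 change of 1 in both directions.

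**Figure D4:**
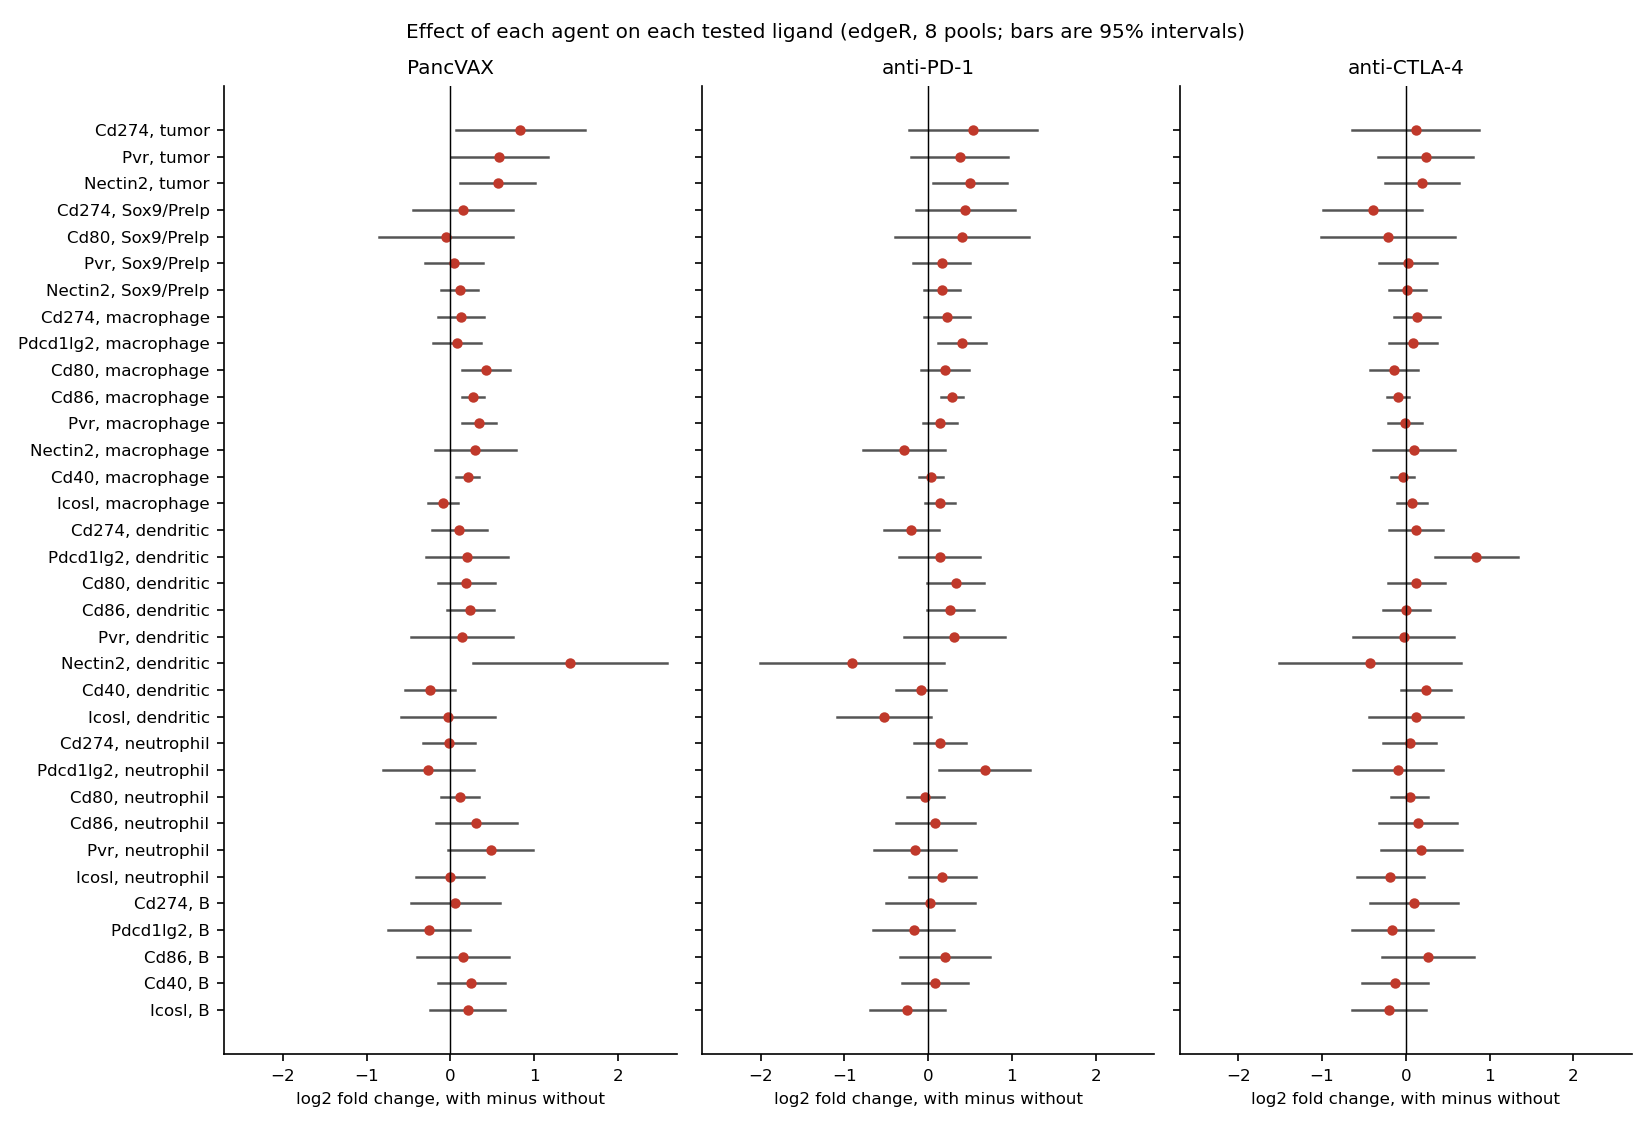
Log2 fold change (horizontal axis, with minus without) of each tested ligand in each class for the 3 agents, from edgeR over 8 pools. Dots are estimates and bars 95% intervals. No effect passed the adjusted threshold, and the widest intervals belong to Nectin2 in dendritic cells.

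The ligand nearest the threshold for PancVAX was Cd86 in macrophages. Its 4 pools without PancVAX had 91.7, 103, 110 and 115 CPM, and the 4 pools with it had 115, 117, 134 and 154 CPM. The 2 groups did not overlap, which in macrophages was so for 7.16% of all genes tested. The log2 fold change was 0.27 (SE 0.06, 95% interval 0.14 to 0.40, adjusted P = 0.0991). The interval excludes 0 but the effect is not past the threshold after adjustment. Within whole-tumor libraries alone the log2 value was 0.31 and within Percoll libraries 0.26. The adjusted P ranged from 0.0037, with all 16 libraries and preparation as a covariate, which counts the 2 libraries of each pool as separate samples, to 0.508, in Percoll libraries alone.

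Cd40 and Pvr in macrophages and Cd40 in B cells were the other tested ligands whose PancVAX groups did not overlap, against 7.16% of genes in macrophages and 4.94% in B cells. Macrophage Cd40 was 48.5 to 50.4 CPM with PancVAX and 40.5 to 43.4 CPM without (log2 0.21, SE 0.06, adjusted P = 0.209). Macrophage Pvr was 17.1 to 20.8 CPM with and 13.2 to 14.6 CPM without (log2 0.34, adjusted P = 0.172). B-cell Cd40 was 60.9 to 99.9 CPM with and 40.8 to 59.4 CPM without (log2 0.25, adjusted P = 0.851). The B-cell pools with PancVAX include PancVAX + anti-PD-1, whose value rests on only 42 cells. Macrophage Cd80 overlapped between groups, 25.8 to 44.6 CPM with and 21.3 to 28.0 CPM without (log2 0.43, SE 0.13, adjusted P = 0.196). Over the 8 ligands in macrophages the median log2 change was 0.24, against 0.00 over all 11377 genes tested.

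Summed tumor markers in macrophages were 181 to 242 CPM with PancVAX and 145 to 192 CPM without, ranges that overlap (9 of 23 markers tested, 0 called, with Cldn6, Tspan8 and Mal2 at 0). T and NK markers in macrophages were also higher in every PancVAX pool, at 372 to 482 CPM against 292 to 339 CPM (25 of 39 tested, 0 called). In T and NK cells themselves the groups with and without PancVAX did not overlap for 4 ligands. Higher with PancVAX were 18.6 CPM ± 1.92 of Cd86 against 13.0 ± 1.28, 14.7 CPM ± 0.797 of Pvr against 9.39 ± 0.540, and 9.91 CPM ± 1.18 of Cd80 against 5.51 ± 0.443 (SD, n = 4 pools each). Lower was Pdcd1lg2, at 45.2 CPM ± 4.26 against 61.0 ± 2.54. The groups did not overlap for 24.7% of the 11610 genes with a mean of at least 1 CPM in these cells, so this was common there. The part of these markers and levels in the macrophage values was not tested. Within single macrophage clusters Cd86 had a log2 change of 0.28 in the Gdf15 and Apoe cluster (adjusted P = 0.297), -0.03 in the Ccl8 and Ccl24 cluster and 0.39 in the Arg1 and F13a1 cluster. EdgeR called 0 of these 3, and 2 had an unadjusted p below 0.05.

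Groups of pools did not overlap for 4 of 34 tests with PancVAX, 0 with anti-PD-1 and 0 with anti-CTLA-4. Beside the macrophage and B-cell shares above, 10.2% of genes tested did not overlap by PancVAX in the tumor class, 7.52% in the Sox9/Prelp class, 3.97% in dendritic cells and 3.91% in neutrophils, where 0 of the tested ligands did so. Cd40 in neutrophils, with too few counts to be tested, also did not overlap, at 5.00 CPM ± 1.54 with PancVAX and 2.87 CPM ± 0.815 without, from 57 UMIs. For anti-PD-1 the shares were 1.67% in the tumor class, 2.91% in the Sox9/Prelp class, 2.88% in macrophages, 3.49% in dendritic cells, 3.42% in neutrophils and 2.46% in B cells. For anti-CTLA-4 they were 2.31%, 2.37%, 2.32%, 2.5%, 2.51% and 2.56% in the same order.

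All 3 ligands tested in the tumor class had an unadjusted p below 0.05 for PancVAX and were higher with it. There, PancVAX pools had 8.11 CPM ± 2.98 of Cd274 and the others 3.88 CPM ± 1.81 (log2 0.83, 95% interval 0.07 to 1.60, adjusted P = 0.333), from 92 UMIs in all. Nectin2 (20.9 against 12.1 CPM) and Pvr (35.6 against 18.9 CPM) in the same class had edgeR adjusted P = 0.265 and 0.372. Over the alternatives the log2 change ran from 0.21 to 1.12 for Cd274, from 0.06 to 0.72 for Nectin2 and from -0.05 to 0.95 for Pvr. The name of this class is weakly supported, and without the upper limits it went to other cells. Neutrophil Cd274 was 273 CPM ± 49.5 with and 269 CPM ± 44.4 without PancVAX (log2 -0.02, 95% interval -0.33 to 0.30). Neutrophil Cd80 was 273 to 330 CPM with and 231 to 299 CPM without (log2 0.12, interval -0.11 to 0.34). A log2 change of 1 in either direction thus lay outside the intervals of both neutrophil ligands. In the tumor class, summed T and NK markers were 137 to 499 CPM with PancVAX and 53.4 to 156 CPM without (10 of 39 tested, 0 called), ranges that overlap, and their part in the tumor-class values was not tested.

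Among the antibody effects, Pdcd1lg2 in dendritic cells had the smallest p for anti-CTLA-4. The 4 anti-CTLA-4 pools had 40.5 to 67.0 CPM and the other 4 had 18.0 to 42.0 CPM, which overlap slightly (log2 0.84, SE 0.23, edgeR adjusted P = 0.974). For anti-PD-1, macrophage Cd86 was 110 to 154 CPM with and 91.7 to 117 CPM without (log2 0.28, edgeR adjusted P = 0.567). The other 3 were Pdcd1lg2 in macrophages (15.3 against 11.8 CPM) and neutrophils (32.2 against 21.6 CPM) and Nectin2 in the tumor class (9.06 to 26.6 CPM with, 9.94 to 16.6 CPM without), with edgeR adjusted P from 0.526 to 0.919. The neutrophil value leans on the anti-PD-1 + anti-CTLA-4 pool (47.9 CPM): without it the log2 change of Pdcd1lg2 went from 0.67 to 0.30.

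The balance of Cd86 to Cd274 was compared as a ratio within each pool, since it does not depend on scaling. In macrophages the log2 ratio was 0.29 ± 0.23 with PancVAX and 0.15 ± 0.31 without, in dendritic cells 0.39 ± 0.39 and 0.24 ± 0.27, and in neutrophils -3.94 ± 0.41 and -4.28 ± 0.34 (SD, n = 4 pools each). The differences of 0.14, 0.16 and 0.34 had exact permutation P of 0.429, 0.571 and 0.257, and adjusted P = 0.571 for all 3 (70 splits, smallest possible P = 0.0286). Over the 8 pools the UMI ratio of Cd86 to Cd274 ran from 0.856 to 1.47 in macrophages, from 0.968 to 1.83 in dendritic cells and from 0.0397 to 0.0994 in neutrophils, so that the pools with and without PancVAX overlapped in all 3 classes. Mature-like cells made up 16.8% ± 5.07 of dendritic cells with PancVAX and 21.9% ± 2.77 without (difference -5.08 percentage points, exact permutation P = 0.143).

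The Percoll libraries differed from the whole-tumor libraries of the same pools in 9 of 32 member-by-class tests, all 9 higher in Percoll (edgeR with the pool as a block, 8 pools). Macrophages accounted for 4 of these, at a background of 24.8% of all genes tested called and 14.3% called higher. Neutrophils accounted for 2 (25.6% and 14.3%), the Sox9/Prelp class for 2 (13.7% and 7.38%) and the tumor class for 1 (13.7% and 6.87%). Dendritic cells had 0 of 7 (2.79% of genes called, 1.71% higher) and B cells 0 of 5 (8.43%, 5.76% higher), with 0 and 1 of these at an unadjusted p below 0.05. With so few ligands in a class, these counts do not set the ligands apart from the background.

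In macrophages Cd40, Cd86, Cd274 and Cd80 were higher in Percoll. Cd40 was 35.3 to 51.7 CPM in whole tumor (median 40.6) and 43.7 to 61.6 CPM in Percoll (median 53.1), higher in 7 of 8 pools (log2 0.43, SE 0.07, adjusted P = 2.8e-05). Cd86 was 84.1 to 148 CPM and 100.1 to 163 CPM, higher in 8 of 8 pools (log2 0.28, SE 0.05, adjusted P = 5.2e-05). Cd274 (92.6 against 111 CPM, log2 0.36) and Cd80 (26.7 against 32.4 CPM, log2 0.37) were each higher in 6 of 8 pools. The groups of libraries overlapped for all 4. Pdcd1lg2, Icosl, Pvr and Nectin2 in macrophages had adjusted P from 0.0775 to 0.898.

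**Figure D5:**
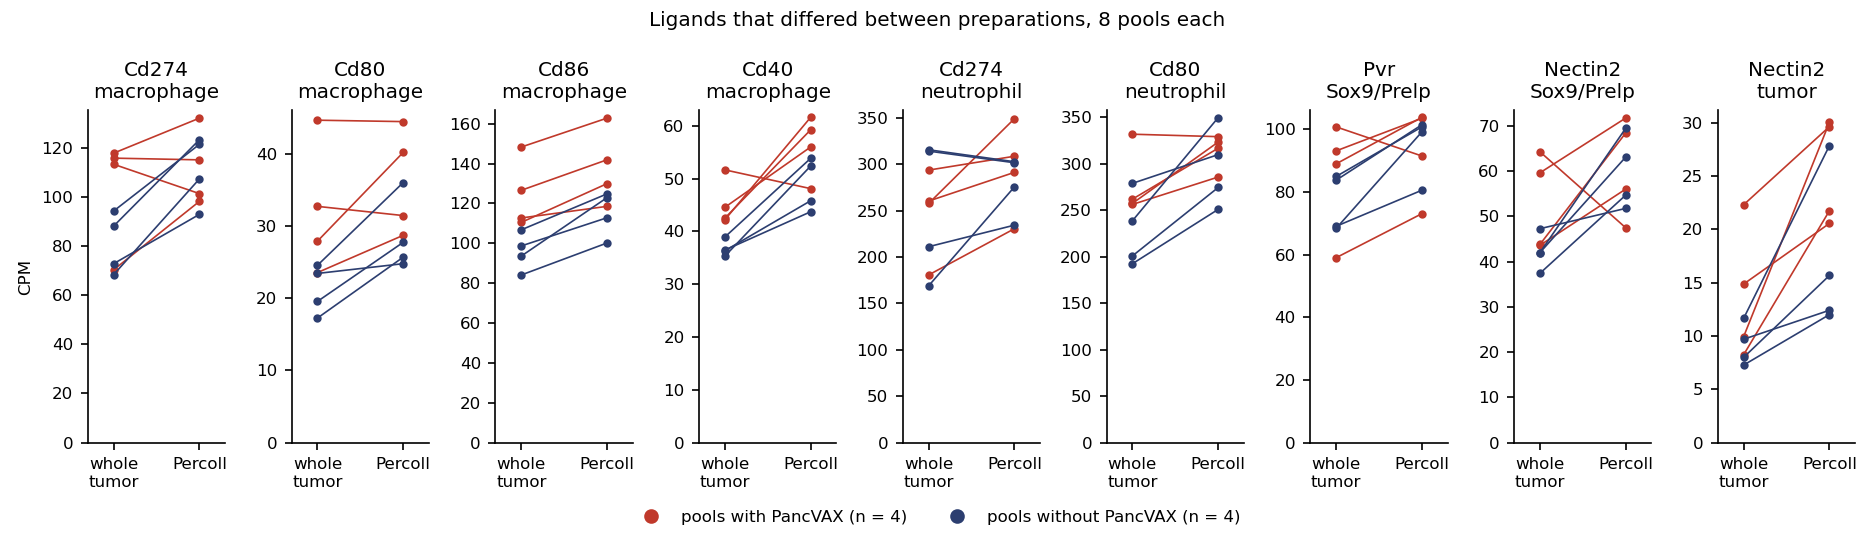
CPM (vertical axes, each from 0) of the 9 ligand and class pairs called between preparations, each line joining the whole-tumor and Percoll library of 1 pool (red with PancVAX, blue without). Macrophage Cd86 and tumor-class Nectin2 rise in all 8 pools, and the other pairs rise in 6 or 7 of 8.

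In neutrophils Cd80 was 252 CPM ± 44.0 in whole tumor and 305 CPM ± 32.3 in Percoll, higher in 7 of 8 pools (log2 0.31, adjusted P = 0.0023). Cd274 was 250 CPM ± 57.7 and 287 CPM ± 39.4, higher in 6 of 8 pools (log2 0.25, adjusted P = 0.0239). In the Sox9/Prelp class Pvr was 81.0 and 94.3 CPM (log2 0.25) and Nectin2 47.5 and 60.3 CPM (log2 0.35), each higher in 7 of 8 pools. In the tumor class Nectin2 was 11.5 CPM ± 5.00 and 21.2 CPM ± 7.43, higher in 8 of 8 (log2 0.71, adjusted P = 0.0261). Tumor-class Pvr (21.6 and 34.1 CPM) had adjusted P = 0.0558.

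Not all of these calls were stable. Neutrophil Cd274 lost its call in 8 of 15 alternatives, Nectin2 in the Sox9/Prelp class in 9 of 15 and tumor-class Nectin2 in 5 of 15, each with the same direction. Neutrophil Cd274 lost it without the anti-PD-1 pool or without any 1 of the 4 PancVAX pools (log2 0.19 to 0.24, edgeR adjusted P 0.0511 to 0.130). Sox9/Prelp Nectin2 lost it without any 1 of 6 pools, all but anti-PD-1 + anti-CTLA-4 and PancVAX + anti-PD-1 (log2 0.31 to 0.34, edgeR adjusted P 0.0567 to 0.0727). Tumor-class Nectin2 lost it without the anti-PD-1 + anti-CTLA-4, PancVAX or PancVAX + anti-PD-1 pool (log2 0.61 to 0.66, edgeR adjusted P 0.0686 to 0.0833). With classes set by marker gates, neutrophil Cd80 alone of the 9 kept its call, while all 9 were still higher in Percoll (macrophages at log2 0.34 for Cd40, 0.28 for Cd274, 0.25 for Cd80 and 0.22 for Cd86).

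The mixture of clusters was not the same in the 2 preparations. The Gdf15 and Apoe cluster was 52.9% of macrophages in whole tumor and 61.9% in Percoll. Within that cluster alone all 4 ligands were still called by edgeR, with log2 changes of 0.44 for Cd40, 0.42 for Cd80, 0.31 for Cd274 and 0.24 for Cd86. In the Arg1 and F13a1 cluster edgeR called 0 of the 4 (log2 0.14 to 0.36, adjusted P 0.126 to 0.657, Cd274 alone with an unadjusted p below 0.05). In the Ccl8 and Ccl24 cluster it called Cd86 (0.47) but not Cd40 (0.42) or Cd274 (0.47), and Cd80 was not tested. Within the Siglecf neutrophils Cd80 (0.32) and Cd274 (0.23) were still called. In the Retnlg neutrophils neither was, at 0.16 for Cd80 (edgeR adjusted P = 0.388) and 0.24 for Cd274 (adjusted P = 0.179). Within the Sox9 and Prelp cluster Pvr (0.24) and Nectin2 (0.33) were still called. In macrophages, 8 of the 17 tested neutrophil markers of 29 were higher in Percoll, with a summed level of 2424 to 3365 CPM against 2251 to 2677 CPM and Ly6g and Stfa2 at 0, where 14.3% of all genes were higher. In neutrophils, 12 of the 25 tested macrophage markers of 34 were lower in Percoll and 1 was higher, where 25.6% of all genes were called and 14.3% called higher. In the tumor class, 8 of 16 tested stromal markers were higher in Percoll, where 6.87% of all genes were. The part of these markers in the ligand differences was not tested.

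Other genes of these pathways were counted from lists. The lists hold 20 other checkpoint and costimulatory ligands, 9 receptors of the members, 16 interferon-gamma targets, 12 dendritic maturation genes and 6 adaptors of CD40 and Toll-like receptors. For each of the 3 agents, edgeR called 0 of 52, 9, 93, 55 and 35 gene-by-class tests. In macrophages with PancVAX, 7 of 11 maturation genes and 1 of 16 interferon-gamma targets had an unadjusted p below 0.05, where 13.4% of all genes did, and the list medians were log2 0.26 and -0.01. In dendritic cells it was 0 of 12 maturation genes (median log2 -0.11) and 0 of 16 interferon-gamma targets, beside 7.25% of all genes. The tumor class had 4 of 7 (median log2 0.46) and 4 of 14, beside 13.2% of all genes, and neutrophils 4 of 7 (median log2 0.22) and 2 of 15, beside 7.31%. The Sox9/Prelp class had 3 of 9 and 0 of 16, beside 12.46%, and B cells 1 of 9 and 1 of 16, beside 6.38%. Of the other lists with PancVAX, macrophages had 3 of 13 ligands, 2 of 6 receptors (median log2 1.15) and 2 of 6 adaptors at such a p. The receptors were near the detection limit in macrophages, at 1.46 CPM or less for each but Pvrig (7.80 CPM). T and NK markers in macrophages were also higher in every PancVAX pool, as given above, and their part in the receptor values was not tested. The Sox9/Prelp class had 2 of 8, 0 of 2 and 3 of 6, and B cells 4 of 7, 0 of 1 and 0 of 6. For ligands and adaptors, neutrophils had 1 of 9 and 2 of 5, dendritic cells 0 of 10 and 1 of 6, and the tumor class 0 of 5 and 1 of 6. With anti-PD-1, neutrophils also had 4 of 7 maturation genes at such a p (median log2 0.27), beside 7.95% of all genes, and the other 5 classes had 1 or 2.

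Percoll calls in the lists are counted over the 6 classes, whose shares of all genes called are given above and run from 2.79% in dendritic cells to 25.6% in neutrophils. Of 53 maturation tests 15 were higher and 1 lower in Percoll, and of 32 adaptor tests 10 were higher and 0 lower. Of the maturation genes, macrophages had 5 of 9 and neutrophils 5 of 7 called higher, where 14.3% of all genes were, the Sox9/Prelp class 3 of 9 (7.38%), dendritic cells 1 of 12 (1.71%), B cells 1 of 9 (5.76%) and the tumor class 0 of 7 (6.87%). Of the adaptors, macrophages had 5 of 6, the Sox9/Prelp class 3 of 6, and dendritic cells and neutrophils 1 of 5 each. In macrophages these included Traf1 (log2 0.84), an NF-kappaB target, Tnfaip3 (0.66), which restrains NF-kappaB, and Cd83 (0.52). Of 48 tests of other ligands 13 were higher and 1 lower, among them Tnfsf14 (LIGHT) in neutrophils, at 37.0 CPM ± 10.4 in Percoll and 7.80 CPM ± 5.94 in whole tumor (log2 2.36), and Icam1 in neutrophils (0.45) and macrophages (0.35). Interferon-gamma targets were split, with 13 higher and 8 lower of 90. In macrophages Iigp1 fell by 0.54 on the log2 scale in Percoll while Irf1 rose by 0.28. Of 5 receptor tests 1 was called, Pvrig in macrophages (log2 0.46, higher in Percoll).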

How the data were processed

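Single cells of 16 RNA libraries (8 treatments, whole tumor and Percoll) were sequenced by the authors with 10x Genomics 5′ chemistry on a NextSeq instrument. The deposited matrix holds raw UMI counts per gene and barcode, made by the authors with Cell Ranger 4.0.0 on mm10, per the labels. The submitters' processing notes also name Seurat. Cells were assigned to libraries by the barcode suffix, matched to the number in each sample's description. T-cell receptor contigs of 8 further libraries were not used. UMIs of 1 cell are molecules, but intervals cover counting error only.

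Cells with more than 200 and fewer than 3000 genes, more than 1000 and fewer than 10000 UMIs, under 10% mitochondrial UMIs and 0 hemoglobin UMIs were kept, and genes seen in at least 3 barcodes. Cells were clustered on 2000 variable genes without the ligands described here, the other listed ligands and the listed receptors, with cell cycle scores regressed out. Genes of the other lists were not held out. Fscn1 and Ccl22 of the maturation list also served to name mature-like dendritic cells. Results for that list are therefore not independent of the names of dendritic cells. Then 25 principal components were aligned across the preparations by an implementation of Harmony. Louvain clustering followed (20 neighbours, igraph 0.11.9, resolution 0.6). Whole-tumor and Percoll libraries were thus compared within classes already aligned across preparation. Clusters were named for the class whose markers were most frequent in their top 10 genes, provided that 3 or more markers of it were raised by over 0.5 on the log2 scale. Where no marker was among the 10, at least 3 raised markers and at least 2 times as many as in the next class were asked for, a rule set after the clusters were seen. In the main setting the tumor class (4066 cells) owes its name to this rule, with 6 tumor markers raised against 3 of the next class. Its leading genes were Gm26917, Rhox5 and Cdc20. Scrublet in scanpy 1.11.5 called 426 cells (0.743%). The share called ran from 0.0944% in the Percoll library of PancVAX + anti-PD-1 (7412 cells), where it did not work, to 1.39% in the Percoll library of PancVAX + anti-PD-1 + anti-CTLA-4. Few doublets were thus called in any library. Called cells were left out only as an alternative, which says little about doublets.

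Counts were summed per pool and class (classes with under 10 cells in a pool were left out of it) and tested with edgeR 4.0.16 (filterByExpr, TMM, quasi-likelihood, R 4.3.3, two-sided, adjusted P at 0.05), with terms for the 3 agents. Preparation was tested over 16 libraries with the pool, that is the treatment, as a block. DESeq2 1.42.0 was an alternative. Levels of neighbouring classes were compared on log2 CPM with 0.5 UMI added, ratios with 0.5 UMI added to each gene. Scripts were tested on simulated data. The members, the lists and the tests were chosen with earlier results of these data known. All 8 members are named in all classes, with up to 4 called genes per list, comparison and class with the largest changes, of which examples are given, and the 3 genes most like each member (at least 10 mean CPM), of which 1 to 3 are given. Alternatives were another test, normalization, filter, set of cells, clustering, preparation, or a pool left out. No member was called for PancVAX, so its effect was not compared between classes.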

Additional observations from a re-analysis of the deposited data

Results flagged for a closer look

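In 76 groups of 4 pools, 6 had 1 pool far from the other 3 (by Dixon's criterion for a gap relative to the range), where chance flags about 1 in 20 groups. Among pools with PancVAX, Pvr in the Sox9/Prelp class was 64.6 CPM in the PancVAX + anti-CTLA-4 pool and 97.2 to 101 CPM in the others. Cd80 in the same class was 8.03 CPM in the PancVAX + anti-PD-1 pool and 2.88 to 3.68 CPM in the others. Among pools without PancVAX, Pvr in macrophages was 13.2 CPM in the isotype control pool and 14.4 to 14.6 CPM in the others, and Pdcd1lg2 in neutrophils was 47.9 CPM in the anti-PD-1 + anti-CTLA-4 pool and 21.4 to 23.5 CPM in the others. The log2 ratio of Cd86 to Cd274 in neutrophils was -3.33 in the PancVAX + anti-CTLA-4 pool and -4.24 to -4.09 in the other pools with PancVAX. The mature-like share of dendritic cells in that pool was 24.4%, against 13.5% to 15.1%.

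The mean level of 2 ligands was higher in T and NK or endothelial cells, which lie outside the 6 classes, than in any of the 6: Pdcd1lg2 in T and NK cells (53.1 CPM, in 16.3% of cells and 4.66% after thinning) and Nectin2 in endothelial cells (107 CPM, in 22.7% of cells and 6.80% after thinning). Other ligands had signal outside the 6 classes below that of their highest class. Examples are 45.2 CPM of Cd274 in T and NK cells, and 32.1 CPM of Pvr and 29.5 CPM of Cd40 in endothelial cells. The unnamed cluster of 1404 cells, which was keratin-positive, had 63.7 CPM of Pvr.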

How the results depend on the processing

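Of 2031 values of single agent effects under alternatives, 2023 stayed on the same side of the threshold and 8 newly passed it, while 212 had the other sign without being called in either setting. The PancVAX count of 0 became 2 (Cd86 and Cd80 in macrophages) with no filter on low counts, with 16 libraries and preparation as a covariate, and without the PancVAX pool, and leaving out 1 pool gave 0 to 2. With no filter the anti-PD-1 count became 1 (Pdcd1lg2 in neutrophils) and the anti-CTLA-4 count 1 (Pdcd1lg2 in dendritic cells), while leaving out 1 pool gave 0 for both. For all genes in macrophages, PancVAX called 4 by edgeR and 56 by DESeq2, and in the tumor class 7 (all higher) by edgeR and 181 (8 higher, 173 lower) by DESeq2. The cause of these moves was not tested.

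The Percoll count of 9 became 4 without the pool block (no replicate pairing) and 1 with classes set by marker gates per cell, and leaving out 1 pool gave 7 to 9. Without the upper limits, added after seeing the data like the pools left out and the cells with shared barcodes, it was 13, and Pvr in macrophages changed sign to 0.27.

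Leaving out 1 pool moved the Cd86 to Cd274 difference over 0.02 to 0.23 in macrophages, -0.00426 to 0.30 in dendritic cells and 0.14 to 0.49 in neutrophils. The mature-like share difference ran from -7.60 to -3.96, and reached -7.60 (exact permutation P = 0.0286, the smallest possible) without the PancVAX + anti-CTLA-4 pool.

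Of 280 values of class pairs, 20 had the other sign, 13 of these with the tumor or Sox9/Prelp class in the pair and 13 without upper limits, where those names went to other cells. In 7 of the 20 the pair was called in neither setting, such as Pdcd1lg2, B minus dendritic (-0.24 without upper limits, -0.33 with gates), Icosl, macrophage minus neutrophil (-0.18 without upper limits) and Nectin2, B minus neutrophil (-0.56 with gates). The other 13 were called in at least 1. Without upper limits the log2 differences were -2.83 for Pdcd1lg2, tumor minus stromal (-1.38 with gates), -0.99 for Cd80 (stromal minus tumor), -1.77 for Cd86 (tumor minus stromal), -0.38 for Pvr (stromal minus tumor), 1.498 for Pvr, tumor minus dendritic (1.17 with gates), -1.31 for Pvr (neutrophil minus B), -0.13 for Nectin2 (stromal minus tumor), -0.79 for Nectin2 (macrophage minus B), -0.0102 for Cd40, B minus macrophage, -1.98 for Cd40 (tumor minus stromal) and 2.29 for Icosl (stromal minus tumor). Without a change of sign, 17 values of pairs lost their call and 10 gained one, such as Pvr, macrophage minus neutrophil, without upper limits (0.67), Nectin2, dendritic minus macrophage, in 3 settings (0.48 to 1.19), Nectin2, B minus neutrophil, without upper limits (3.56) and Cd40, tumor minus stromal, in Percoll libraries (1.72). Pairs with few UMIs in both classes depend on the added 0.5 UMI.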
